A study of Homo sapiens with 4 samples.

Results

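The tubulins, the actins and the proteins that bind actin or tubulin subunits were examined in H9, an established line of human embryonic stem cells. Members were chosen by gene symbol: tubulin genes and the TUBGCP genes, the 6 actin genes, cofilins, profilins, beta-thymosins, ARPC subunits, stathmins and tropomyosins, leaving out rows described as pseudogenes. Of 105 rows with such a symbol, 44 were pseudogenes, and the remaining 61 rows of 60671 (60 symbols, since TMSB15B was listed under 2 identifiers) were kept. The RNA-seq data comprised 4 libraries of poly(A)-selected RNA, 2 labelled as control H9 cells and 2 labelled as H9 cells with a CRISPR/Cas9-edited CFIm25 gene and overexpressed 3Flag-tagged CFIm25 (called KO+OE libraries below, after their label). All cells were kept in a medium for undifferentiated stem cells. CFIm25, encoded by NUDT21, is a subunit of the machinery that cuts and polyadenylates pre-mRNA.

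In the study the editing left a shortened CFIm25 protein at a low level rather than none, and the tagged protein was supplied from a lentiviral vector with an EF1 promoter to 1 edited clone. Edited cells without the tagged protein were not analysed here, so the comparison asks only whether edited and re-expressing cells differed from control cells. The labels do not say that the libraries came from separate cultures, and p-values therefore measure only the spread between these samples. NUDT21 itself stood at 161 and 152 TPM in control against 162 and 157 TPM in KO+OE libraries, with overlapping groups and a difference of 0.03 on the log2(TPM + 1) scale (limma, adjusted p = 0.980). An excess over control was thus not visible in this row, which does not separate the endogenous from the lentiviral transcript. On western blots the study found re-expressed CFIm25 at about the endogenous level, which is protein and not RNA. Every direction below rests on the label. TPM is a level scaled to the length of the transcript and to the library, and different genes are compared on it below. The scaling takes no account of base composition, so orders and shares of genes are those of the deposited values. Of 6 stem cell markers, POU5F1 (2164 to 2212 TPM) and LIN28A (517 to 528 TPM) were the highest in all 4 libraries. DPPA4 (93.9 to 98.4 TPM), L1TD1 (20.4 to 22.6 TPM), SOX2 (18.2 to 19.4 TPM) and NANOG (15.85 to 19.9 TPM) were lower. The library sums lay between 986853 and 987078 TPM. In bulk RNA, fewer cells of a type and less RNA per cell cannot be told apart.

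Actin and tubulin build the filaments that give a cell its shape, move its cargo and divide its chromosomes. Actin monomers polymerize into filaments that profilin feeds, thymosin starves, cofilin severs, the ARP2/3 complex branches and tropomyosin coats. Alpha- and beta-tubulin pair into dimers that assemble into microtubules from rings of gamma-tubulin, and stathmins hold free dimers back. Both filaments are made from several isotypes, encoded by separate genes, whose proteins are nearly alike and whose use differs between tissues.

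The members made up a steady share of the RNA measured, and no difference of a single member between the groups passed the test over all genes. Together they took 4.13% and 4.17% of the TPM in control against 4.14% and 4.25% in KO+OE libraries. Of the 61 rows, 47 had a mean of at least 1 TPM over the 4 libraries and were tested with the other genes at that level, 12319 in all. None of the 47 passed an adjusted p of 0.05 (limma, lowest adjusted p = 0.928), against 0.00812% of all genes tested. An unadjusted p under 0.05 was reached by 1 member, TMSB15A, against 5.33% of all genes.

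**Figure D1:**
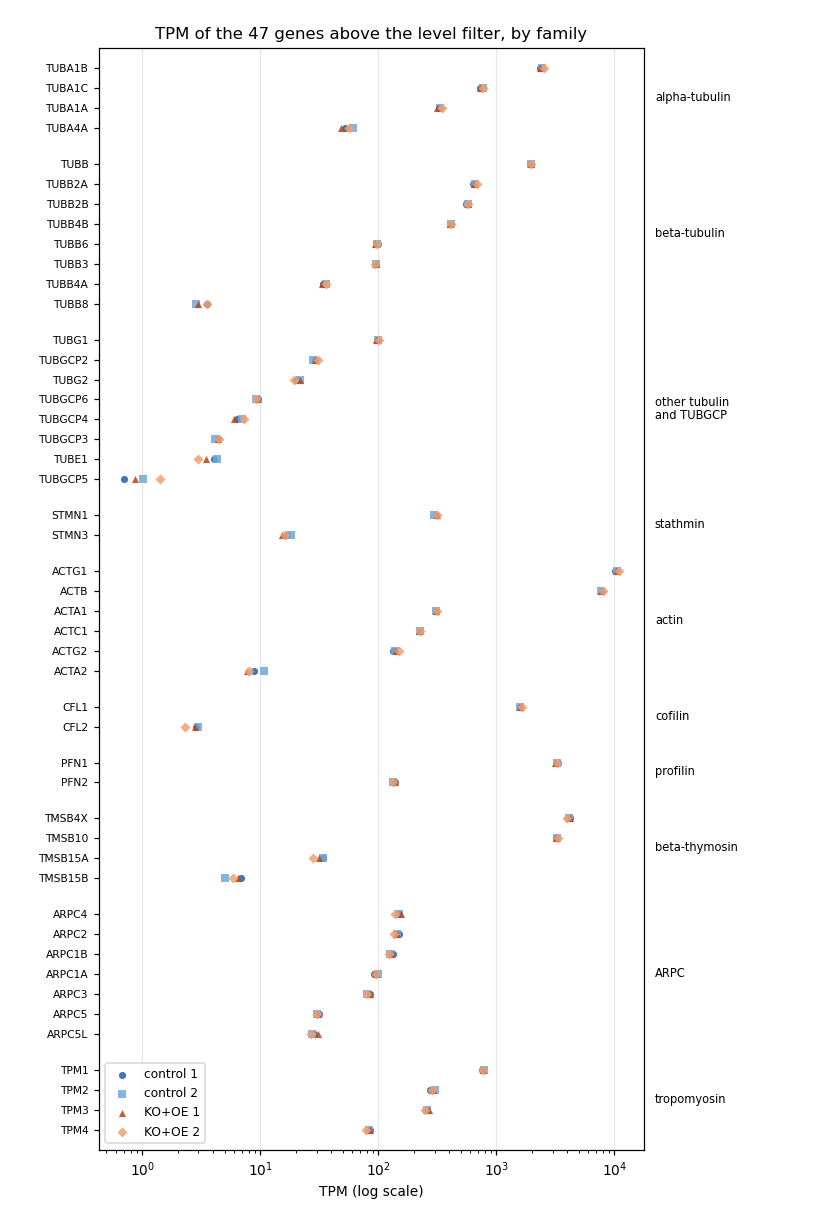
TPM on a log scale of the 47 members with a mean of at least 1 TPM, grouped by family, with 1 symbol per library (circles and squares, control; triangles and diamonds, KO+OE). The symbols of a gene nearly coincide for most genes, from ACTG1 at the right end downwards, and spread visibly for TUBGCP5, between 0.70 and 1.42 TPM.

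The cytoplasmic actins led the list. ACTG1, encoding gamma-actin of non-muscle cells, stood at 10013 and 10418 TPM in control against 10318 and 10870.1 TPM in KO+OE libraries. ACTB, encoding the beta-actin found beside it, stood at 7779.95 and 7673 TPM in control against 7739 and 7973 TPM in KO+OE libraries. ACTG1 exceeded ACTB in each library, with a ratio between 1.29 and 1.36, and the ranges of both groups overlapped for either gene. ACTG1 made up 54.2% to 55.6% of the summed actin TPM and ACTB 40.8% to 42.1%. The difference of ACTG1 between the groups (KO+OE minus control, on the log2(TPM + 1) scale) was 0.05, with a 95% confidence interval of -0.04 to 0.14 (limma, adjusted p = 0.938).

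The 4 muscle actins were also listed in these stem cells, at levels that covered a wide range. ACTA1, the actin of skeletal muscle, was at 308 and 309 TPM in control against 307 and 313 TPM in KO+OE libraries. ACTC1, the cardiac form, was at 225 and 226 TPM in control against 223 and 225 TPM in KO+OE libraries. ACTG2 of enteric smooth muscle was lower, at 134 and 138 TPM in control against 142 and 149 TPM in KO+OE libraries. The last of them, ACTA2 of vascular smooth muscle, was at 8.93 and 10.8 TPM in control against 7.71 and 8.06 TPM in KO+OE libraries. The order ACTG1, ACTB, ACTA1, ACTC1, ACTG2, ACTA2 held in all 4 libraries without overlap between neighbours. The groups did not overlap for ACTG2, which was higher in KO+OE, and for ACTA2 and ACTC1, which were lower, but none of these differences passed the unadjusted test. Over all genes tested, 34.1% had groups that did not overlap.

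Other markers of muscle were mixed. Of 8 striated muscle markers, MYOG was at 0 in all libraries and MYOD1 at 0.06 TPM or less, while TNNI3 stood at 94.97 to 99.8 TPM. TNNT2 (5.48 to 7.86 TPM) and DES (4.88 to 5.90 TPM) lay between, and MYH3, MYH6 and MYH7 stayed at 0.50 TPM or less. The whole list summed to 107 to 113 TPM. Of 4 smooth muscle markers, CNN1 stood at 110 to 115 TPM, SMTN at 20.8 to 26.25 TPM and LMOD1 at 1.05 to 1.51 TPM. MYH11, the smooth muscle myosin, was at 0.65 to 0.75 TPM, and the list summed to 133 to 143 TPM. Their part in the muscle actin levels was not tested.

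The promoters of the actins are shown because 4 of them carried the same element. The window from 250 bases before to 50 bases after each gene's start (RefSeq, GRCh38.p14) was searched on both strands for the CArG box, the binding element of serum response factor, which reads the same in both directions. The box was found in 438 of 27305 genes with a promoter (1.60%) and in 6 of the 53 member symbols matched. These were ACTA1, ACTC1, ACTG1 and ACTG2 of 5 actins matched, TPM4 and TUBG2. No box was found in the window of ACTA2, and ACTB was not matched. Only exact matches (CC, 6 bases of A or T, GG) were searched, so boxes that deviate or lie outside the window were not seen. Each stretch below runs 5′ to 3′ on the gene's own strand from 140 to 41 bases before the start, with the boxes in capitals.
ACTA1, chr1:229434135-229434234, minus strand: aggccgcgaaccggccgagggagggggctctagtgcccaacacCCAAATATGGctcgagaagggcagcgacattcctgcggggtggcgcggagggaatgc
ACTC1, chr15:34795590-34795689, minus strand: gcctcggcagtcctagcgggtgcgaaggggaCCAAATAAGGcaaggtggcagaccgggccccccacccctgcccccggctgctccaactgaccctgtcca
ACTG1, chr17:81512840-81512939, minus strand: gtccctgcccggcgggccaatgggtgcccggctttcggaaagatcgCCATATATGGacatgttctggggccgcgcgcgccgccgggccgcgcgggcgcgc
ACTG2, chr2:73892868-73892967, plus strand: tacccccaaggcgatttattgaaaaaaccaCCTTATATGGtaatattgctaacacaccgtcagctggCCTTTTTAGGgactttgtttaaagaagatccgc
The box began 94 bases before the start in ACTG1, 97 in ACTA1 and 109 in ACTC1, and ACTG2 held 2 boxes, beginning 110 and 73 bases before it. The 4 genes with a box thus ranged from 134 to 10870.1 TPM, and the box is a match of letters, not a measured site.

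Monomer-binding proteins were the next most abundant group. TMSB4X, encoding thymosin beta-4, which sequesters actin monomers, stood at 4176 and 4119 TPM in control against 4165 and 3946.5 TPM in KO+OE libraries. TMSB10, a related thymosin, stood at 3212 and 3249 TPM in control against 3214 and 3315 TPM in KO+OE libraries. TMSB4X exceeded TMSB10 in every library, by a ratio of 1.19 to 1.30, and its difference between the groups was -0.03 (95% interval -0.11 to 0.05, limma adjusted p = 0.957). PFN1, encoding profilin, which recharges monomers with ATP and delivers them to growing ends, stood at 3323 and 3268 TPM in control against 3166 and 3247 TPM in KO+OE libraries. Its KO+OE libraries both lay below the control libraries, with a difference of -0.04 (95% interval -0.10 to 0.02, limma adjusted p = 0.938). The ranges of PFN1 and TMSB10 overlapped, so that these neighbours could not be ordered. PFN2, the form best known from neurons, was 22.8 to 24.6 times lower than PFN1, at 133 to 139 TPM, and the testis profilins PFN3 and PFN4 stayed at 0.15 TPM or less.

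TMSB15A was the member with the lowest p. It belongs to the same thymosin family and was at 34.2 and 34.3 TPM in control against 31.2 and 28.1 TPM in KO+OE libraries. Both KO+OE libraries were lower, and they differed more from each other than the control libraries did. The difference was -0.20 (95% interval -0.38 to -0.02, limma adjusted p = 0.928). The unadjusted test was passed in 8 of 12 alternative analyses, and the adjusted p ranged from 0.868 to 0.953 over them. Its closest relative by name, TMSB15B, was at 5.02 to 6.89 TPM under 1 identifier and at 0.10 TPM or less under the other.

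Cofilin and the ARP2/3 subunits turn filaments over and branch them. CFL1, the non-muscle cofilin, stood at 1588 and 1575 TPM in control against 1584 and 1661 TPM in KO+OE libraries, a difference of 0.04 (95% interval -0.04 to 0.11, limma adjusted p = 0.948). It made up at least 99.8% of the cofilin TPM, and the muscle cofilin CFL2 was at 2.33 to 2.95 TPM. PFN1 exceeded CFL1 by a ratio of 1.96 to 2.09. Among the ARPC genes, ARPC4 was at 149 and 149.7 TPM in control against 157 and 139 TPM in KO+OE libraries, with a difference of -0.02 (95% interval -0.18 to 0.15, limma adjusted p = 0.990). ARPC2 (136 to 151 TPM) overlapped ARPC4, and ARPC1B (124 to 133 TPM), ARPC1A (92.4 to 99.3 TPM) and ARPC3 (79.8 to 85.9 TPM) followed without overlap. ARPC5 (30.2 to 31.6 TPM) and ARPC5L (27.1 to 30.8 TPM), which take the same place in the complex, overlapped. Of the ARPC1 forms, ARPC1B exceeded ARPC1A in each library, by a ratio of 1.27 to 1.44.

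Tropomyosins coat filaments and set which proteins can reach them. TPM1 stood at 752 and 790.1 TPM in control against 776 and 772 TPM in KO+OE libraries, 54.6% to 55.7% of the tropomyosin total. Its difference between the groups was 0.01 (95% interval -0.08 to 0.09, limma adjusted p = 0.990). TPM2 (272 to 299.9 TPM), TPM3 (247 to 268 TPM) and TPM4 (79.5 to 84.6 TPM) followed in this order without overlap, and both groups overlapped for all 4 genes. Gene-level values do not tell muscle from non-muscle splice forms of these genes.

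Among the alpha-tubulins, TUBA1B was dominant. It stood at 2349 and 2437 TPM in control against 2354 and 2511 TPM in KO+OE libraries, a difference of 0.02 (95% interval -0.08 to 0.12, limma adjusted p = 0.983). TUBA1C followed at 720.5 to 769 TPM, TUBA1A, the isotype best known from the developing brain, at 316 to 344 TPM, and TUBA4A at 48.8 to 61.5 TPM. No neighbours in this order overlapped. The first 3 of these genes lie close together on chromosome 12 (TUBA1B chr12:49127782-49131395, TUBA1A chr12:49184795-49189080 and TUBA1C chr12:49227926-49274600, GRCh38.p14). TUBA1B held 68.0% and 67.7% of the alpha-tubulin TPM in control and 68.4% and 68.2% in KO+OE libraries. The difference of 0.497 percentage points separated the groups, but with 2 libraries a group an exact permutation test cannot give a p below 0.333. The share of TUBA1C separated the other way (21.00% and 21.35% in control against 20.94% and 20.86% in KO+OE), and shares of a family are bound to a common total. Shares of other isotypes, such as TUBB6, ACTA1 and STMN3, did not overlap either. Among the levels of all genes tested, 34.1% did not overlap between groups. TUBA3C was listed at 0 in all libraries, and TUBA3D, TUBA3E, TUBA4B, TUBA8 and TUBAL3 stayed at 0.53 TPM or less.

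The beta-tubulins were spread over more isotypes. TUBB, the most widely expressed form, stood at 1943 and 1975 TPM in control against 1949.5 and 1958 TPM in KO+OE libraries, with a difference of -0.0037 (95% interval -0.06 to 0.05, limma adjusted p = 0.990). It held 50.7% to 51.4% of the beta-tubulin TPM. TUBB2A (638 to 688 TPM), TUBB2B (553 to 579 TPM) and TUBB4B (401 to 416 TPM) followed without overlap. TUBB3, used as a marker of neurons, was at 95.7 and 95.1 TPM in control against 94.8 and 93.4 TPM in KO+OE libraries. Its range overlapped that of TUBB6 (94.7 to 99.5 TPM), and TUBB4A, a brain isotype, followed at 33.1 to 35.8 TPM. TUBB8, the isotype of oocytes, was at 2.87 to 3.58 TPM, TUBB8B at 1.04 TPM or less and the platelet isotype TUBB1 at 0.01 TPM or less.

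Other neuronal markers were mixed beside this level of TUBB3. Of 8 neuron markers, NEUROD1 was at 0 in all libraries, DCX at 0.03 to 0.06 TPM and SNAP25 at 0.16 TPM or less. ELAVL4 (0.04 to 0.34 TPM) and ELAVL3 (0.26 to 0.75 TPM) also stayed below 1 TPM. MAP2 (1.34 to 2.55 TPM), SYP (2.99 to 4.06 TPM) and RBFOX3 (15.1 to 18.0 TPM) were above 1 TPM, and the list summed to 20.2 to 25.4 TPM. The sum of all alpha-tubulins was 0.906 to 0.952 of the sum of all beta-tubulins, and its lowest and highest values both fell in the KO+OE group.

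**Figure D2:**
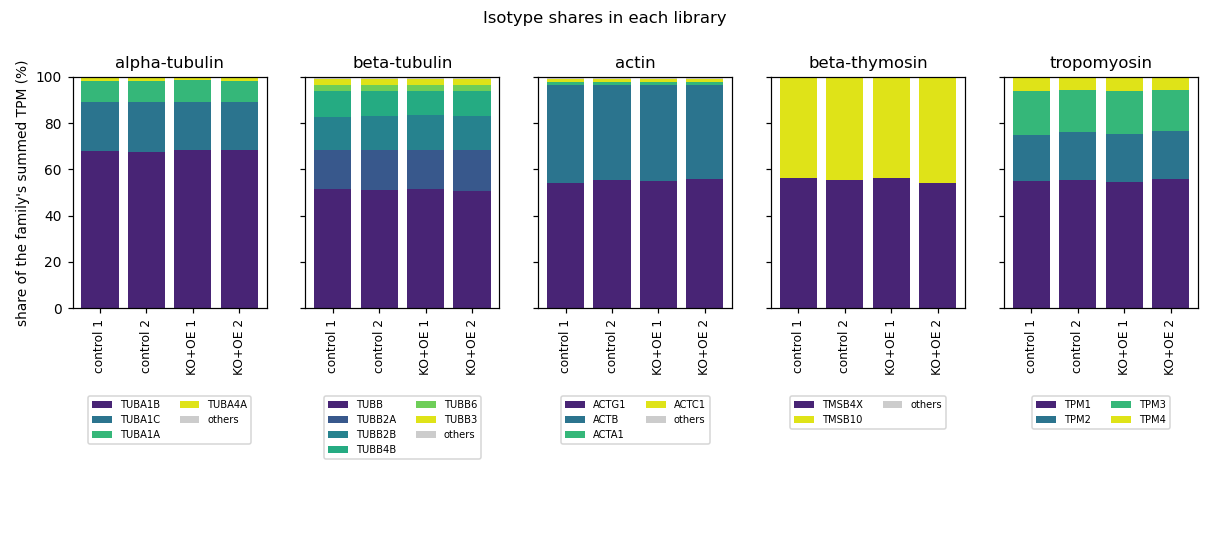
Share of each isotype in the summed TPM of its family (%), 1 bar per library, for alpha-tubulins, beta-tubulins, actins, beta-thymosins and tropomyosins. Isotypes at 1% or more are coloured and the rest is grey (too thin to see in most bars). The bars of the 4 libraries are nearly the same height at each boundary, and TMSB4X in KO+OE replicate 2 (54.1%) is the lowest of its 4 values.

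Gamma-tubulin and the TUBGCP ring proteins, which start microtubules, were less abundant than the leading alpha- and beta-tubulins. TUBG1 stood at 100.2 and 99.1 TPM in control against 96.1 and 101 TPM in KO+OE libraries, a difference of -0.02 (95% interval -0.13 to 0.09, limma adjusted p = 0.988). TUBG2, close to it on chromosome 17, was at 19.2 to 21.6 TPM. The ring proteins ranged from TUBGCP2 (28.2 to 30.8 TPM) over TUBGCP6, TUBGCP4 and TUBGCP3 to TUBGCP5, at 0.70 and 1.01 TPM in control against 0.87 and 1.42 TPM in KO+OE libraries. TUBGCP5 had the highest difference of all members tested, 0.20, with overlapping groups and an interval of -0.38 to 0.79 (limma, adjusted p = 0.961), and its mean was just inside the level filter. This value moved between 0.07 and 0.37 with the pseudocount, and from 0.08 without control replicate 1 and 0.02 without KO+OE replicate 2 to 0.32 without control replicate 2 and 0.39 without KO+OE replicate 1. TUBE1, encoding epsilon-tubulin of centrioles, had the lowest difference, -0.30 (95% interval -0.65 to 0.04, limma adjusted p = 0.931). It was at 4.10 and 4.34 TPM in control against 3.51 and 2.98 TPM in KO+OE libraries. Its partner in the centriole, TUBD1 (delta-tubulin), was at 0.35 to 1.22 TPM and just outside the filter.

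Stathmins bind free tubulin dimers. STMN1, the form of dividing cells, stood at 309 and 294 TPM in control against 313 and 314 TPM in KO+OE libraries, a difference of 0.06 (95% interval -0.04 to 0.15, limma adjusted p = 0.938). STMN3, a form enriched in neurons, was at 17.0 and 18.4 TPM in control against 15.3 and 16.1 TPM in KO+OE libraries. STMN1 was thus higher and STMN3 lower in both KO+OE libraries, and the ratio of STMN1 to STMN3 was 18.1 and 15.998 in control against 20.5 and 19.5 in KO+OE. Neither gene passed the unadjusted test, and the ratio falls under the same limit of 0.333 on an exact permutation p. Such a lack of overlap was seen for 34.1% of all genes tested. The neuronal forms STMN2 (0.27 to 1.14 TPM) and STMN4 (0.10 to 0.28 TPM) were not tested.

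Across the 47 members tested, 23 differences were above 0 and 24 below, from -0.30 to 0.20. Their median was -0.0037, against -0.012 for all genes tested. The median size of a difference without its sign was 0.02 on the log2 scale, against 0.08 for all genes, most of which were at lower levels than the members. The 95% interval of the difference lay within a factor of 2 for all 47 members (11409 of 12319 genes) and within a factor of 1.2 for 36 of them (3270 of 12319 genes). The groups did not overlap for 11 members, 2 higher and 9 lower in KO+OE libraries, which is 11 of 47 against 34.1% of all genes (1786 higher and 2418 lower of 12319). These were ACTG2 and STMN1, and TMSB15A, ACTA2, TUBE1, STMN3, PFN1, TUBB6, CFL2, TUBB3 and ACTC1. Measured as a mean absolute log2 difference over the 47 members, the control libraries were 0.07 apart and the KO+OE libraries 0.09, and libraries of different groups were 0.05 to 0.09 apart. Over the 31 members with a mean of 50 TPM or more these distances were 0.05, 0.06 and 0.04 to 0.06, against 0.08, 0.08 and 0.07 to 0.08 for all 1976 genes at that level. The distances between groups thus spanned those within them.

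**Figure D3:**
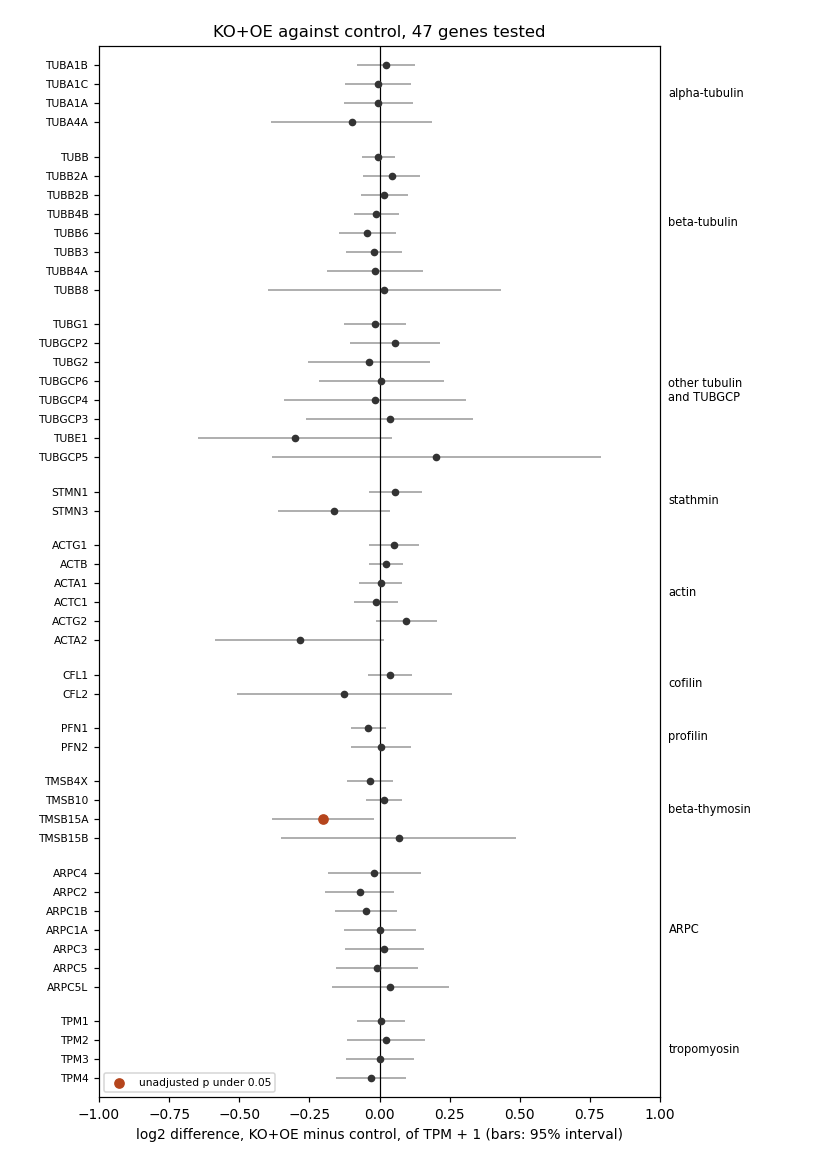
Difference between KO+OE and control libraries on the log2(TPM + 1) scale for the 47 members tested (points), with 95% confidence intervals (bars), grouped by family and ordered by level. The interval of TMSB15A (coloured point) leaves out 0, and the widest intervals are those of genes at a few TPM, such as TUBGCP5 (-0.38 to 0.79).

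Genes that act on these proteins were described from 5 lists of pathway genes. No gene of any list passed an adjusted p of 0.05 (limma). The unadjusted test was passed by none of 15 rows for tubulin folding, 2 of 18 genes tested for microtubule dynamics, none of 13 for actin nucleation, none of 16 for filament turnover and none of 18 for contractility and the serum response factor pathway, against 5.33% of all genes tested. The highest-level gene of each list without such a gene was CCT7 (551 to 578 TPM, a subunit of the chaperonin that folds actin and tubulin), BRK1 (103 to 114 TPM, of the WAVE complex), CAPZB (347 to 359 TPM, which caps filament ends) and MYL6 (2640.2 to 2678 TPM, a myosin light chain). The median differences of the 5 lists lay between -0.03 and 0.01.

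HDAC6 and MZT2B were the genes that passed the unadjusted test. HDAC6, encoding the enzyme that removes acetyl groups from alpha-tubulin in microtubules, was at 14.7 and 14.96 TPM in control against 20.3 and 19.8 TPM in KO+OE libraries. Both KO+OE libraries lay above both control libraries by more than either group's spread, with a difference of 0.41 (limma, adjusted p = 0.658). ATAT1, the enzyme that adds the acetyl group, was at 8.78 and 9.84 TPM in control against 8.70 and 12.03 TPM in KO+OE libraries, which overlapped. MZT2B, encoding a small protein of the gamma-tubulin ring, was at 485 and 457 TPM in control against 420.4 and 409 TPM in KO+OE libraries, a difference of -0.18 (limma, adjusted p = 0.925). Its paralog MZT2A was at 322 and 291 TPM in control against 282 and 285 TPM in KO+OE libraries. The KO+OE libraries were the lower ones for both MZT2 genes, and MZT2A did not pass the unadjusted test. Canonical transcripts of both genes had 599 bases, with 66.8% GC for MZT2A and 67.1% for MZT2B. How much sequence they share was not examined, so MZT2A is no separate support for MZT2B. Among the alternatives that kept all 4 libraries, HDAC6 passed the unadjusted test in each and MZT2B in each but the fit without the mean-dependent prior. These refits use the same libraries in which the genes were picked, so they are no separate support. Groups that did not overlap were found for 34.1% of all genes tested.

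Subunits of the same assembly differed widely in level, and so did the base composition of their transcripts. The 9 ARP2/3 genes (7 ARPC genes, ACTR2 and ACTR3) ranged over a factor of 32.2, with ACTR2 at 3.89 to 5.44 TPM and ACTR3 at 11.9 to 13.6 TPM below every ARPC gene. Transcripts of ACTR2 and ACTR3 held 37.5% and 35.0% GC, and those of the ARPC genes 39.6% to 57.8%. The 10 genes of the gamma-tubulin ring ranged over a factor of 443, from TUBGCP5 to MZT2B, and MZT1, with 31.0% GC, was at 1.59 to 1.75 TPM. Spearman's rho between mean TPM and GC content of the canonical transcript was 0.62 over the 9 ARP2/3 genes and 0.85 over the 10 ring genes, and with transcript length it was -0.70 and -0.58. Over all 47 members tested rho was 0.18 with GC content and -0.39 with length. These points share the same 4 libraries, and the part of base composition in the levels was not tested.

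**Figure D4:**
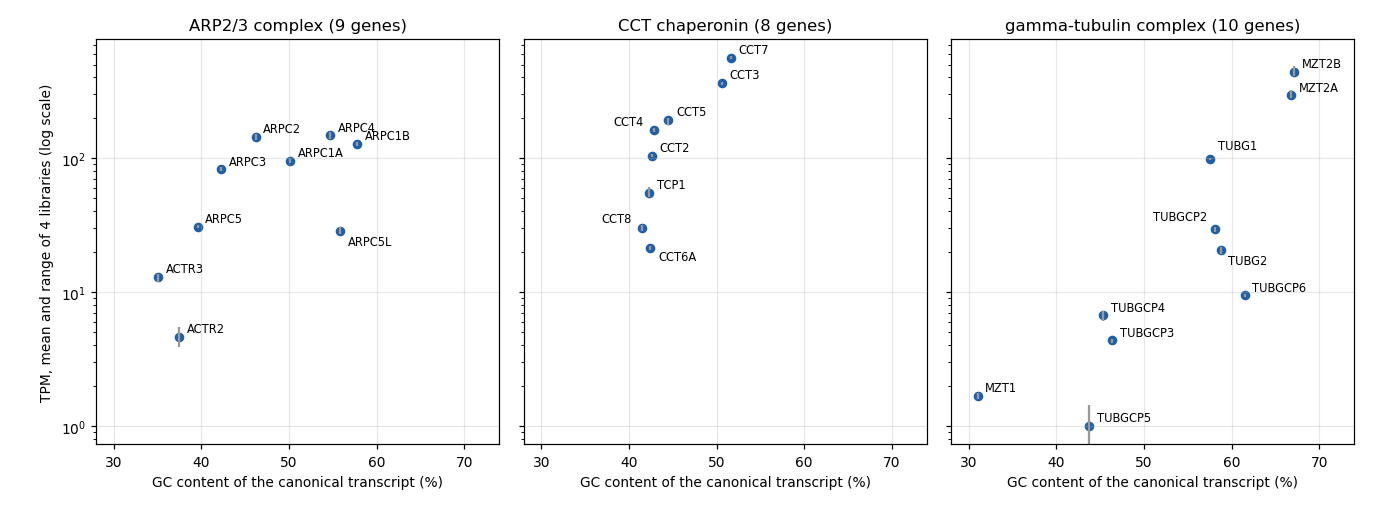
Mean TPM (points, log scale) and range over the 4 libraries (grey bars) against the GC content of the canonical transcript (%) for the genes of the ARP2/3 complex, the CCT chaperonin and the gamma-tubulin complex. ACTR2, ACTR3 and MZT1 lie at the low end of both axes, and ARPC5L combines 55.8% GC with about 29 TPM.

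Near-identical sequence limits how well some isotypes can be told apart. Each canonical transcript was cut into every window of 150 bases, the read length, and each window was looked for in the transcripts of all other genes (GENCODE release 44 on GRCh37). Only exact matches over all 150 bases were counted, so windows that differ at a few bases were not seen. Of the 47 members tested, 17 had at least 1 window in common with another gene and 8 had more than 10%. The actins had no exact window in common with each other or any other gene, and neither had CFL1, TMSB4X or TMSB10. This count cannot show that reads from similar but not identical stretches, as between actins, were kept apart, which was not tested. TUBB2A and TUBB2B, close together on chromosome 6 (chr6:3153666-3157544 and chr6:3224277-3227653, GRCh38.p14), had 48.7% and 41.6% of their windows in common with other genes, mostly with each other, so that the ratio between them (1.13 to 1.201) is uncertain. TUBA1B had 19.1%, TUBA1A 8.01% and TUBA1C 7.22%, all within this trio. For TUBB3 the figure was 92.3%, mainly through a readthrough transcript of a separate gene that was listed at 0 in all libraries. ARPC1A (74.04%) and ARPC1B (73.3%) overlapped a readthrough gene at 0.20 to 2.11 TPM, and ARPC4 (30.5%) overlapped ARPC4-TTLL3 at 1.30 to 6.54 TPM.

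**Figure D5:**
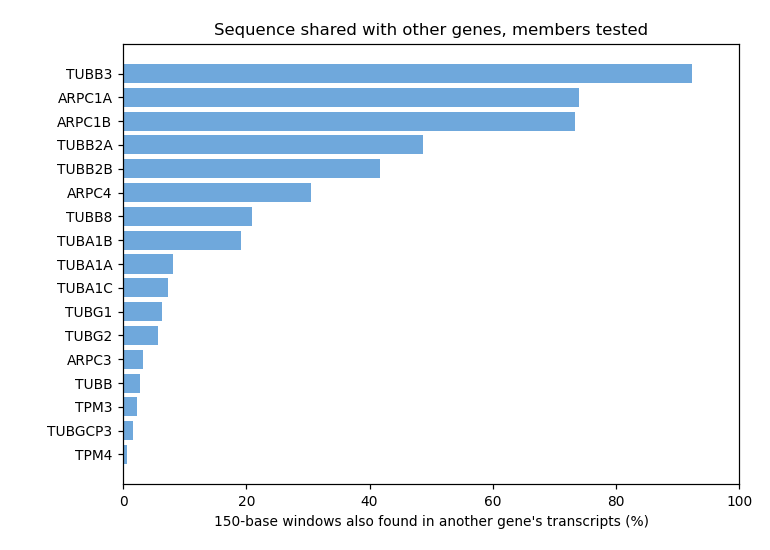
Share of 150-base windows of the canonical transcript that also occur in transcripts of another gene (%), for the 17 members tested that have any. TUBB3, ARPC1A and ARPC1B stand above 70% and TPM4 lies at the bottom with 0.688%.

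Pseudogenes of these families were listed at low levels. The 109 rows named as pseudogenes of a member or its family summed to 43.0 and 45.8 TPM in control against 42.1 and 38.0 TPM in KO+OE libraries, and 33 of them were above 0 in any library. Of 20 pseudogenes of ACTG1 and 10 of ACTB, the sums were at most 0.0105% and 0.0073% of the TPM of the parent gene. The 11 pseudogenes of TUBB8, itself at a few TPM, summed to 18.4% to 31.8% of their parent. TUBB8 also had 20.9% of its windows in common with TUBB8B or TUBB8P8, so its level is uncertain. The most abundant pseudogene was TUBBP1, at 18.3 and 16.2 TPM in control against 17.1 and 12.6 TPM in KO+OE libraries, which shares 2.66% of the windows of TUBB. None of the 6 pseudogenes above the level filter passed the unadjusted test.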

How the data were processed

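The authors deposited a table of 60671 genes with 1 column per library and no stated unit. The deposited values were read as TPM, since each column sums to nearly the same total and holds decimals. The submitters' processing notes name hg38, HISAT2, featureCounts from Subread and DESeq2, without versions. Libraries were paired-end, with oligo(dT) selection. TPM keeps no count, so depth is unknown, counting error was not computed and no count test was used. The number of other columns with per-sample values was 0.

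Values were set on log2(TPM + 1), which understates changes of low genes. Testing covered genes whose mean over the 4 libraries reached 1 TPM, and used limma 3.58.1 in R 4.3.3 (mean-dependent prior, group as the only term, two-sided), with Benjamini-Hochberg adjustment over all 12319. Groups and replicate numbers came from the sample titles. The step was tested on simulated data. Members and lists were chosen with earlier results of these data known. Fold differences are given for the highest-level member of each family, members with an unadjusted p under 0.05 and the members with the highest and lowest difference, and in lists for genes with such a p or else the highest-level gene. ATAT1, MZT2A, MZT1, ACTR2, ACTR3, the other CCT subunits and capping protein genes were named after their values were seen. Deviations of same-numbered libraries had a correlation of -0.05 over all genes tested. At a mean of at least 50 TPM it was -0.58 over 1976 genes and 0.54 over the 31 members among them. Alternatives were a pseudocount of 0.1 or of 5, no level filter, a minimum mean of 5 TPM, median-ratio rescaling, quantile normalization, no mean-dependent prior, a replicate block and leaving out each library. Promoters and positions came from RefSeq (GRCh38.p14), and transcript sequence, length and GC content from GENCODE release 44 (GRCh37), matched on Ensembl identifiers, with no coordinates taken from it. Promoters of 7 member symbols were not matched.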

Additional observations from a re-analysis of the deposited data

How the results depend on the processing

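No member passed an adjusted p of 0.05 under any of the 12 alternatives. The count of members at an unadjusted p under 0.05 (1 in the main analysis) was 3 with no filter (TMSB15A, TUBA8 and STMN4), 4 with quantile normalization (TMSB15A, TMSB10, ACTG2 and CFL1), 2 with the replicate block (TMSB15A and ACTG1) and 0 to 1 when a library was left out. The members' median difference (-0.0037) became 0.0038 with no filter, 0.0091 with median-ratio rescaling, 0.0066 with quantile normalization, -0.0037 with the replicate block, and -0.016 to 0.0080 when a library was left out. The median over all genes tested moved too, from -0.012 to -0.00055 with median-ratio rescaling and to 0.0010 with quantile normalization. Signs changed for small differences: ARPC4 became 0.0020 with quantile normalization, and TUBB became 0.0091 with median-ratio rescaling and 0.0097 with quantile normalization. ACTG1, the highest member in each library, became 0.00 with quantile normalization, which gives the same value to the same rank. Leaving out a library changed the sign of 8 of the 19 genes followed (ARPC4 from -0.105 to 0.068, TUBA1B from -0.024 to 0.070, TMSB4X from -0.072 to 0.0059, TUBB from -0.016 to 0.0082, TUBG1 from -0.051 to 0.017, TPM1 from -0.030 to 0.042, BRK1 from -0.088 to 0.049, MYL6 from -0.0042 to 0.013). TMSB15A lost its unadjusted p when either control library or KO+OE replicate 2 was left out and without the mean-dependent prior, where TUBE1 passed instead. ACTA2 passed without control replicate 1, and MZT2B no longer passed without the mean-dependent prior. CFL1 ranged from 0.0024 to 0.070 and TUBGCP5 from 0.017 to 0.389 when a library was left out. The causes were not tested. Differences in isotype share turned sign when a library was left out for TUBB (-0.31 to 0.027 percentage points without KO+OE replicate 2), ACTG1 (0.504 to -0.13 without control replicate 1, and -0.12 with quantile normalization), TMSB4X (-0.784 to 0.247 without KO+OE replicate 2) and TPM1 (-0.030 to 0.528 without KO+OE replicate 1), and kept it for TUBA1B (0.334 to 0.661) and STMN3 (-1.12 to -0.461). With a library left out, the lone library was assumed to vary like the other group. Unknown depth and 2 libraries a group limit what these data can show for genes at a few TPM.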

Other observations

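The chaperonin that folds newly made actin and tubulin, CCT, is built from 8 different subunits in equal number. Their genes ranged over a factor of 26.3, from CCT6A (20.7 to 22.1 TPM) and CCT8 (28.6 to 31.8 TPM) to CCT3 (353 to 371 TPM) and CCT7 (551 to 578 TPM). Each of these 4 ranges stood clear of the others. GC content of the canonical transcript was 42.5% and 41.5% for the lower pair and 50.6% and 51.6% for the higher pair, and Spearman's rho between mean TPM and GC content was 0.93 over the 8 genes, with the same 4 libraries behind every point. Capping protein, a dimer of an alpha and a beta subunit, showed a wider gap. CAPZB was at 347 to 359 TPM, whereas the genes of the alpha subunit, CAPZA1 (2.45 to 2.95 TPM) and CAPZA2 (1.70 to 3.71 TPM), were near the level filter. Their transcripts held 51.9%, 37.9% and 39.8% GC. The part of base composition in these levels was not tested.

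Differences between replicates were compared between the groups. Of the 47 members tested, 18 (38.3%) were higher in replicate 2 of both groups and 11 (23.4%) were lower, against 22.7% and 28.3% of all genes tested. Among the 12 alpha- and beta-tubulins tested, 8 were higher in replicate 2 of both groups and 1 was lower. Over the 31 members whose mean reached 50 TPM, the correlation between the replicate difference in the control group and that in the KO+OE group was 0.54, and over all 1976 genes at that level it was -0.58. It was 0.35 over all 47 members tested, 0.02 over the 12 tubulins and -0.05 over all genes tested. The genes share the same 4 libraries, and the labels do not say that a replicate number marks a shared batch.

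Of 6 fibroblast markers, THY1 was at 1228 to 1352 TPM and COL1A1 at 53.9 to 55.6 TPM, while LUM was at 0 in all libraries and DCN at 0.08 TPM or less. COL1A2 (12.99 to 14.47 TPM) and PDGFRB (11.59 to 14.96 TPM) lay between. Of 4 platelet markers, GP9 was at 0 in all libraries, PPBP and PF4 at 0.47 TPM or less and ITGA2B at 6.52 to 7.89 TPM. What these marker levels reflect was not tested.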
